A study of Mus musculus with 5 samples.

Results

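The genes described here encode the Polycomb repressive complexes, the deubiquitinase that opposes one of them, and the lysine demethylases that erase methyl marks from histones. They were chosen by name as a list of 45 genes, and 44 of the 45 had a row among the 31626 genes of the deposited files. Of these, 30 carried their current symbol in the files and 14 demethylase genes stood under an older symbol, such as Aof2 for Kdm1a, Jarid1b for Kdm5b, Utx for Kdm6a and Jmjd3 for Kdm6b, and were matched through their Ensembl identifiers. Cbx6, a chromobox subunit gene, was the 1 gene without a row under its name or identifier and is not analysed here. The name Jmjd1c stands on a second row as well, which was between 0.129 and 0.767 FPKM and was not used.

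The data are RNA sequencing libraries, 5 in number, of C57Bl/6 mouse common myeloid progenitors. The cells had been transformed with a retrovirus that expresses MN1, a transcriptional cofactor of acute myeloid leukaemia, together with GFP. They were grown in M3234 medium with serum and the cytokines SCF, IL3 and IL6 and were sorted at day 7. The 3 control libraries came from Mll1 flox/flox cells transduced with a control vector, and the 2 knockout libraries from cells given Cre recombinase and labelled Mll1-/- (current symbol of the gene, Kmt2a). The labels do not say whether replicates are separate mice or cultures, so p-values measure the spread between these libraries, which may be technical. Both knockout libraries had been given Cre and no control library had, so exposure to Cre and loss of Mll1 cannot be told apart.

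Polycomb group proteins keep genes silent, and the MLL family belongs to the trithorax group, which keeps genes active. Polycomb repressive complex PRC2 methylates histone H3 at lysine 27 (H3K27) through EZH1 or EZH2. PRC1 attaches ubiquitin to histone H2A through RING1 or RNF2, and the deubiquitinase complex PR-DUB, built around BAP1 and an ASXL protein, removes it. MLL1 methylates H3 at lysine 4 (H3K4), a mark that the KDM1 and KDM5 enzymes erase, while KDM6A and KDM6B erase the PRC2 mark. In blood, BMI1 and EZH2 are known for maintaining stem and progenitor cells, and EZH2, ASXL1 and KDM6A are recurrently mutated in myeloid disease.

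The values are FPKM, sequenced fragments scaled by gene length and by the fragments mapped in the library, so levels of different genes can be set side by side. The number of reads behind a value is unknown. Each log2 change is the knockout mean less the control mean of log2(FPKM + 1), which understates changes of low genes. A gene is said to have risen or fallen where its adjusted p in limma, with Benjamini-Hochberg adjustment, was under 0.05; the adjustment covered the 11780 genes that reached 1 FPKM in 2 or more libraries. All 44 members passed that filter. The plus-minus values are SDs over 3 control and 2 knockout libraries.

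Values are given in the order of control replicates 1, 2, 3 and knockout replicates 1, 2. The targeted gene Mll1 measured 9.67, 7.28 and 7.19 FPKM among the controls, against 6.22 and 5.32 FPKM after knockout. Both knockout values were below every control, but the difference was not called (limma adjusted p = 0.158; two-sided exact permutation p = 0.1, the smallest that 10 splits allow). Which exons lie between the loxP sites is not stated, so a gene-level FPKM is a weak check of the deletion. Of 10 markers of common myeloid progenitors, 9 were tested, and 3 rose and 2 fell. Fcgr3 rose from between 72.2 and 88.8 FPKM to 215 and 218 FPKM. Cd34 stood between 587 and 685 FPKM in controls, against 216 and 212 FPKM after knockout, and Kit between 64.6 and 112 FPKM in controls, against 61.0 and 57.1 FPKM after knockout. The T cell marker Cd3e did not exceed 0.0802 FPKM in any library. Control replicate 1 stood apart from the other controls in 24 markers of mature neutrophils. Of these markers 19 were tested, and 4 rose and none fell. Their summed level was 6717 FPKM in that library and 941 and 1196 FPKM in the other controls, against 23047 and 21270 FPKM in the knockouts. Of the 24, 4 genes (Mmp9, Fpr1, Fpr2 and Padi4) were below 1 FPKM in every library. The 10 promyelocyte granule genes found summed to between 3964 and 4851 FPKM in controls and to 8132 and 8576 FPKM in knockouts, and 5 of the 10 rose. The monocyte and macrophage markers summed to 287 FPKM in control replicate 1 and to 120.1 and 99.998 FPKM in the other controls. In knockouts they summed to 324 and 286 FPKM. Of the 8 tested, however, 2 fell and none rose, with a median log2 change of -0.37. The mast cell, basophil and eosinophil markers summed to 837 to 1052 FPKM in controls and to 1495 and 1521 FPKM in knockouts. Of the 9 tested, 3 rose and none fell. The megakaryocyte markers summed to 59.9 to 92.2 FPKM in controls and to 49.4 and 41.0 FPKM in knockouts. Of the 5 tested, 1 fell and none rose. The erythroid markers summed to between 142 and 171 FPKM in controls and to 174 and 189 FPKM in knockouts. Of the 10 erythroid markers tested, 4 rose and none fell. The 15 lymphoid markers summed to between 40.6 and 56.4 FPKM in controls and to 6.83 and 5.64 FPKM in knockouts. However, 12 of the lymphoid markers were below 1 FPKM in every library, 4 of these at 0. Only Thy1 and Rag2 were tested, and both fell. For all these marker counts, the shares over all genes tested were 3.82% that rose and 5.97% that fell. The part of these shifts in the results below was not tested, and in bulk RNA fewer cells of a type and less RNA per cell cannot be told apart.

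Of the 44 members, 3 fell in the knockout libraries and none rose. Phc1 encodes a polyhomeotic subunit of PRC1, Kdm5b an H3K4 demethylase and Jmjd1c a JmjC protein of the family that acts on H3 lysine 9 (H3K9). The 3 genes make 6.82% of the members, against 9.79% of all genes tested that were called in either direction and 5.97% that fell, so the share called was near the background. No member rose, where 3.82% of all genes did. Changes were mostly small: 42 of 44 members had a log2 change under 0.5 in size, against 80.8% of all genes tested. The 95% interval of the change lay within 0.5 either way for 29 members, or 65.9%, against 39.9% of all genes. The members were also more abundant, with a median of the mean FPKM of 18.8 against 14.3 for all genes tested. They varied less between the controls themselves, with a median SD of log2(FPKM + 1) of 0.121 against 0.159. The part of this in the small changes and narrow intervals was not tested. The median log2 change of the members was -0.097 beside -0.028 for all genes, and the range was -0.88 for Phc1 to 0.25 for Phf19.

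**Figure D1:**
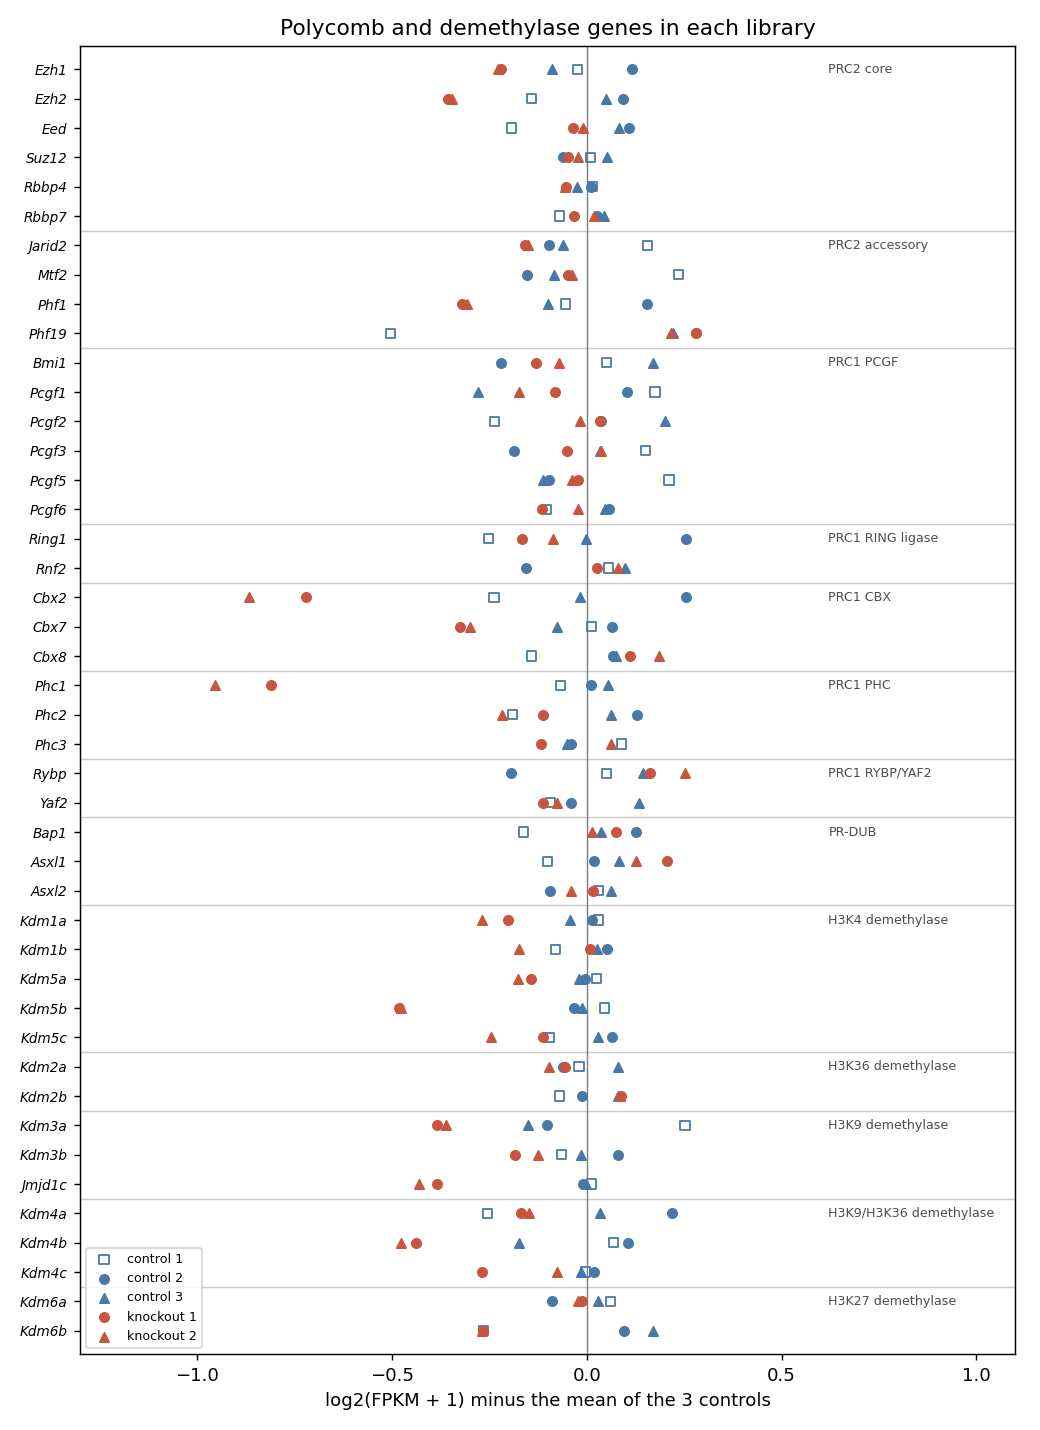
Each row is 1 of the 44 members, ordered by role, and each marker is 1 library, placed at its log2(FPKM + 1) minus the mean of the 3 controls (open squares, control replicate 1; blue, other controls; red, knockouts). The red markers of Phc1, Cbx2, Kdm5b, Jmjd1c and Kdm4b lie left of all 3 controls, while for each of the 6 PCGF genes the red markers overlap the range of the 3 controls.

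The direction of the differences was uneven, with a log2 change below 0 in 36 members, or 81.8%, against 53.5% of all genes. These counts use the values as deposited and depend on scaling. After median-ratio scaling the median log2 change of all genes moved from -0.028 to -0.0017. Among the 19 members followed through the alternative settings, Eed and Kdm6a turned positive. How many of all members stayed below 0 after that scaling was not counted. Both knockout values lay below all 3 controls for 18 members, or 40.9%, against 29.4% of all genes, and above all 3 controls for 4 members, or 9.09%, against 22.9% of all genes. The 4 were Cbx8, Rybp, Asxl1 and Kdm2b, and none of them was called. By role, 10 of the 15 demethylase genes had both knockout values below the controls, compared with 8 of the 29 Polycomb and PR-DUB genes. The difference between these roles was not tested. Median log2 changes were -0.17 for the demethylases and -0.043 for the Polycomb and PR-DUB genes.

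MLL1 carries a CXXC domain that binds unmethylated CG dinucleotides, so the promoters of the 3 genes that fell are shown with each CG in capitals. The sequences are the 250 bases before the first start listed for each gene in RefSeq on build GRCm38.p6, read 5′ to 3′ on the strand of the gene.
Phc1: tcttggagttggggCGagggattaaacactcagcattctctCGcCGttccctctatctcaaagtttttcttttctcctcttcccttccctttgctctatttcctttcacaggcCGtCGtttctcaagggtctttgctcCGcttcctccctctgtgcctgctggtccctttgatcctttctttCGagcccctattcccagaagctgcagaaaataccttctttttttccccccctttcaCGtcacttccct
Kdm5b: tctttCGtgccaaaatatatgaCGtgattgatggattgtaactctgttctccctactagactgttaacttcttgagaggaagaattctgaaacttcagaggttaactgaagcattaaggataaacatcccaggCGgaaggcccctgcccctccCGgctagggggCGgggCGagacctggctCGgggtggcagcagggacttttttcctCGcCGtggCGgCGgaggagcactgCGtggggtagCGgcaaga
Jmjd1c: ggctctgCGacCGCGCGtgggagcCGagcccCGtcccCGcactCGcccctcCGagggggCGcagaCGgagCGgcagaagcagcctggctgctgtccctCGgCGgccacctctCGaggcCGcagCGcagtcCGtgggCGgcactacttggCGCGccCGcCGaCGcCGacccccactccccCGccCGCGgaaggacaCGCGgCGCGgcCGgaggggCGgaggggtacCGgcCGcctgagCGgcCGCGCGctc
They lie at chr6:122340228-122340477 on the minus strand (Phc1), chr1:134559928-134560177 on the plus strand (Kdm5b) and chr10:67126838-67127087 on the plus strand (Jmjd1c). The Phc1 window holds 8 CG, that of Kdm5b 13 and that of Jmjd1c 40. The median was 16 over the windows of the 8363 tested genes that have an entry and 21 over the 35 members that have one. At least as many CG as in the Jmjd1c window were found in 2.46% of the tested windows, and at least as many as in the Phc1 window in 82.7%. The windows of the 3 genes that fell thus lay on both sides of that median. The count describes these letters only.

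None of the 6 PRC2 core genes was called, and the knockouts lay below every control for 3 of them, Ezh1, Ezh2 and Rbbp4. Ezh2, the methyltransferase of dividing cells, stood at 49.3, 58.2 and 56.5 FPKM in controls, against 42.4 and 42.7 FPKM after knockout. The knockouts lay below every control, with a log2 change of -0.35 (95% interval -0.60 to -0.11), and the gene was not called (limma adjusted p = 0.082). Its paralogue Ezh1 stood at 4.59, 5.15 and 4.34 FPKM and at 3.88 and 3.85 FPKM (adjusted p = 0.234), again without overlap. The summed level of 30 proliferation genes was between 2425 and 2886 FPKM in controls, against 2999 and 3107 FPKM after knockout. Of these genes only Cdc20 rose and none fell, with a median log2 change of 0.093. Within the controls, replicate 1 had both the lowest proliferation sum and the lowest Ezh2 value. The part of proliferation in the Ezh2 values was not tested. The share of Ezh2 in the summed FPKM of both genes was 92.1% ± 0.709 in controls and 91.7% ± 0.0720 in knockouts, a difference smaller than the spread of the controls.

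Suz12 and Eed, the scaffold subunits of PRC2, overlapped between groups. Suz12 stood at 82.4, 78.5 and 84.9 FPKM in controls, against 79.2 and 80.6 FPKM after knockout, and its log2 change of -0.035 had a 95% interval of -0.22 to 0.15. Eed, which reads the H3K27 mark, stood at 26.2, 32.5 and 31.9 FPKM and at 29.3 and 29.8 FPKM, with both knockout values inside the control range. The sign of the Eed change was not fixed (log2 change -0.023 as deposited and 0.0069 after median-ratio scaling). The histone chaperone genes Rbbp4 and Rbbp7, which serve other complexes too, were the most abundant members, with Rbbp4 at 295 to 303 FPKM in controls and 289 FPKM in both knockouts and Rbbp7 at 212 to 229 and 217 to 225 FPKM. Ezh1 was the lowest of the 6 core genes.

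None of the 4 genes of PRC2 accessory subunits was called. Mtf2, a Polycomb-like protein gene that was the most abundant of the 4, ranged from 36.7 to 48.4 FPKM in controls and from 39.6 to 39.9 FPKM in knockouts. Jarid2, whose JmjC domain is inactive, stood at 15.4, 12.7 and 13.1 FPKM and at 12.1 and 12.2 FPKM (adjusted p = 0.377). Phf1, another Polycomb-like gene, stood at 3.58, 4.29 and 3.44 FPKM and at 2.81 and 2.85 FPKM (adjusted p = 0.166). Of the exon bases of Phf1, 39.3% are shared with Cuta on the opposite strand, and whether the counting used strand is not given in the sources used here. Phf19, the third Polycomb-like gene, stood at 1.90 FPKM in control replicate 1 and at 3.99 and 3.79 FPKM in the other controls, against 3.99 and 3.77 FPKM in the knockouts. Its log2 change of 0.25, the highest of all members, therefore rested on control replicate 1; without that library the change was -0.0026.

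In PRC1, the genes of the ligase core and of the PCGF subunits overlapped between groups. Rnf2 (Ring1b), the main E3 ligase, stood at 37.8, 32.5 and 39.0 FPKM in controls, against 37.0 and 38.5 FPKM after knockout. Ring1 stood at 10.97, 16.0 and 13.2 FPKM and at 11.7 and 12.4 FPKM. The knockout values of both genes lay inside the control range. Bmi1 (Pcgf4), a PCGF subunit of the canonical complex, stood at 36.1, 29.7 and 39.3 FPKM and at 31.7 and 33.1 FPKM (log2 change -0.10, 95% interval -0.44 to 0.24). The knockouts overlapped the controls for all 6 PCGF genes, and none was called. Pcgf2 averaged 20.2 FPKM in both groups, Pcgf3 10.6 and 10.5, Pcgf5 23.7 and 23.1 and Pcgf6 14.5 and 13.8 FPKM in controls and knockouts. Bmi1 was the most abundant of them and Pcgf1 the lowest, with a mean of 4.96 FPKM over the 5 libraries. Bmi1 made 32.0% ± 2.69 of the summed FPKM of the 6 genes in controls and 31.0% ± 0.593 in knockouts.

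The polyhomeotic genes, whose SAM domains join PRC1 into larger assemblies, had 1 of 3 that fell. Phc1 stood at 8.03, 8.53 and 8.82 FPKM in controls 1, 2 and 3 and at 4.39 and 3.88 FPKM in the knockouts. The groups were far apart relative to their spread, with means of 8.46 and 4.14 FPKM, a 2.05-fold lower level (log2 change -0.88, SE 0.096, limma adjusted p = 0.0152). Phc2, the most abundant of the 3, stood at 20.9, 26.3 and 25.1 FPKM and at 22.1 and 20.5 FPKM (adjusted p = 0.413). Phc3 stood at 5.11, 4.58 and 4.54 FPKM and at 4.29 and 4.99 FPKM (adjusted p = 0.89). Both overlapped between groups. The share of Phc1 in the summed FPKM of the 3 genes was 23.6%, 21.6% and 22.9% in the controls and 14.2% and 13.2% in the knockouts, and no knockout share reached a control share.

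**Figure D2:**
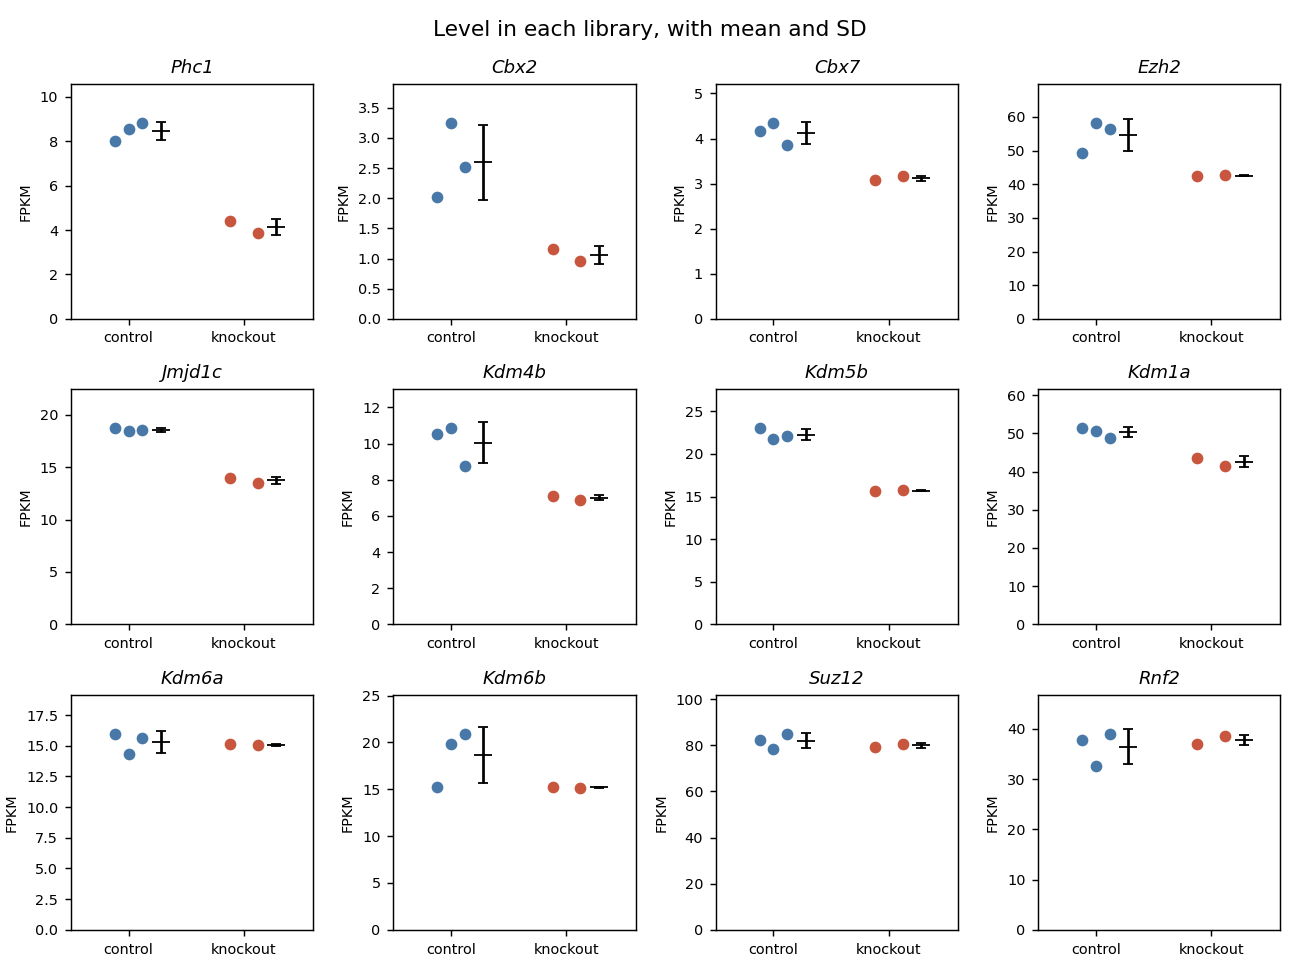
FPKM of 12 members in each library (blue, 3 controls; red, 2 knockouts), with the mean and SD of each group in black and every vertical axis starting at 0. Phc1, Jmjd1c and Kdm5b, the 3 genes that fell, show both knockouts below tightly grouped controls, whereas Kdm6a, Suz12 and Rnf2 overlap.

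The chromobox genes, whose proteins read the H3K27 mark and so bring canonical PRC1 to it, included Cbx2, with the lowest ratio of knockout to control mean among the members. Cbx2 stood at 2.02, 3.25 and 2.52 FPKM in controls, against 1.16 and 0.953 FPKM after knockout. Both knockouts were below every control, at a log2 change of -0.79 (95% interval -1.26 to -0.32), but the controls varied and the gene was not called (limma adjusted p = 0.0599). The ratio of the means was 2.46-fold, and for this low gene the log2 change depended on the pseudocount, at -1.20 with 0.1 and -0.32 with 5. Without control replicate 1 the adjusted p was 0.0206. Cbx7, the chromobox gene best known from stem cells, stood at 4.16, 4.35 and 3.86 FPKM and at 3.08 and 3.16 FPKM, again without overlap and not called (adjusted p = 0.114). Cbx8 stood at 2.04, 2.51 and 2.53 FPKM and at 2.62 and 2.81 FPKM, slightly above every control (adjusted p = 0.478).

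RYBP and YAF2 are alternative subunits of non-canonical PRC1, and neither gene was called. Yaf2 ranged from 39.9 to 46.9 FPKM in controls and from 39.3 to 40.4 FPKM in knockouts. Rybp stood at 3.63, 2.91 and 3.94 FPKM and at 4.001 and 4.32 FPKM (adjusted p = 0.372). Of the 3 PR-DUB genes, Bap1, the catalytic subunit, stood at 42.0, 51.6 and 48.4 FPKM and at 49.8 and 47.6 FPKM. Asxl1, a cofactor of BAP1, stood at 23.9, 26.04 and 27.3 FPKM and at 29.8 and 28.2 FPKM, above every control (log2 change 0.17, adjusted p = 0.266). Asxl2, at 9.40 to 10.6 FPKM over the 5 libraries, was the lowest of the 3 and overlapped between groups. None of the 5 genes was called.

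Among genes of the H3K4 demethylases, which erase the mark that MLL1 writes, Kdm5b fell and 3 others lay below the controls in both knockouts without being called. Kdm5b stood at 23.0, 21.7 and 22.1 FPKM in controls, against 15.7 FPKM in both knockouts, which is 29.5% lower (log2 change -0.48, SE 0.070, limma adjusted p = 0.0246). Kdm5a stood at 21.6, 21.1 and 20.9 FPKM and at 19.1 and 18.7 FPKM (adjusted p = 0.196). Kdm5c, the X-linked member, stood at 29.3, 32.9 and 32.1 FPKM and at 29.0 and 26.3 FPKM (adjusted p = 0.252). Kdm5c was the most abundant of the 3 KDM5 genes, at 41.9% ± 2.005 of their sum in controls. That sum was 74.9 ± 0.931 FPKM in controls and 62.3 ± 2.16 FPKM in knockouts. Kdm5b made 29.7% ± 1.25 of that sum in controls and 25.2% ± 0.942 in knockouts.

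Kdm1a (LSD1), which acts with the CoREST complex and with GFI1 proteins in blood, was the most abundant demethylase gene of the list. It stood at 51.3, 50.7 and 48.8 FPKM in controls, against 43.6 and 41.5 FPKM after knockout. The knockouts lay below every control by a log2 change of -0.24 (95% interval -0.41 to -0.058), and the gene was not called (limma adjusted p = 0.095). Its paralogue Kdm1b was the lowest demethylase gene, at 3.51 to 3.95 FPKM in controls and 3.80 and 3.23 FPKM in knockouts.

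Genes of the KDM3 family of H3K9 demethylases (Kdm3a, Kdm3b and Jmjd1c) were all lower in both knockouts than in each control. Jmjd1c stood at 18.7, 18.4 and 18.5 FPKM in controls, against 14.0 and 13.5 FPKM after knockout, which is 25.9% lower (log2 change -0.41, SE 0.069, limma adjusted p = 0.033). The controls were close together, with an SD of 0.149 FPKM. Kdm3a stood at 25.4, 19.7 and 19.01 FPKM and at 16.0 and 16.3 FPKM (adjusted p = 0.159), with control replicate 1 the highest. Kdm3b, whose exon bases are shared to 24.6% with the long non-coding gene Gm26538 on the opposite strand, stood at 21.3, 23.6 and 22.0 FPKM and at 19.5 and 20.4 FPKM (adjusted p = 0.262).

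The sum of the 3 KDM3 genes was 62.2 ± 2.96 FPKM in controls and 49.8 ± 0.454 FPKM in knockouts. Jmjd1c made 29.8% ± 1.24 of that sum in controls and 27.6% ± 0.915 in knockouts. Both knockout shares of Jmjd1c lay below those of the controls.

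**Figure D3:**
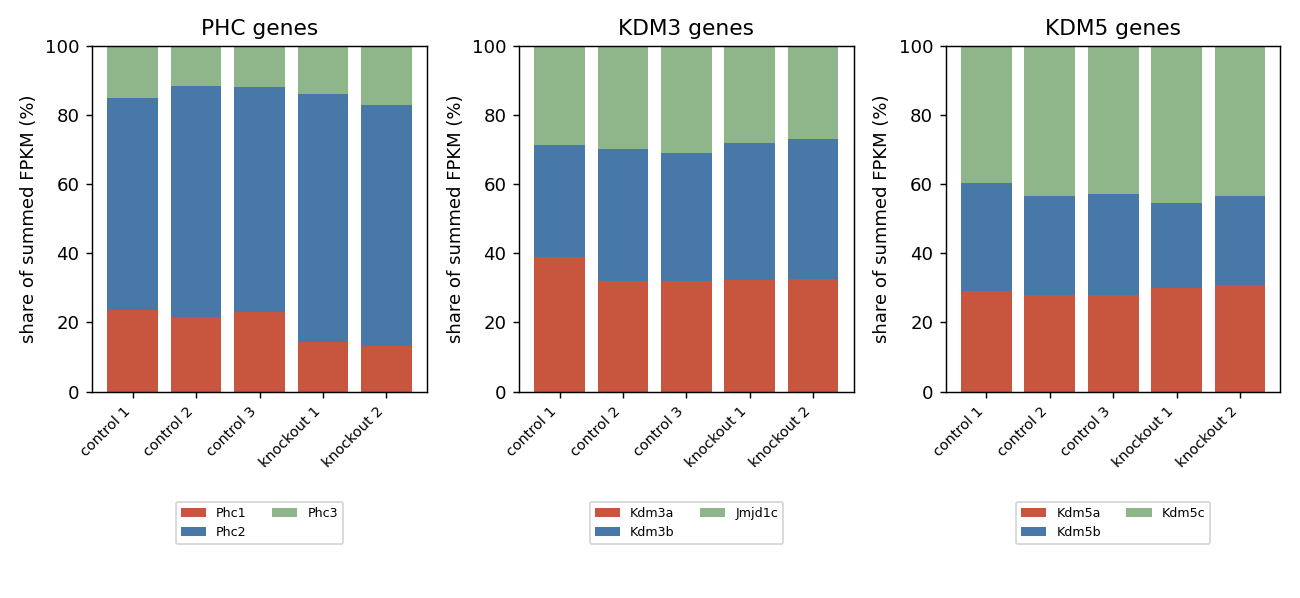
Share of the summed FPKM, in percent, that each gene takes within the PHC, KDM3 and KDM5 genes, for each of the 5 libraries. The Phc1 share is 23.6%, 21.6% and 22.9% in controls and 14.2% and 13.2% in knockouts, and the Jmjd1c share differs less, with 28.6%, 29.8% and 31.1% in controls and 28.2% and 26.9% in knockouts.

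The KDM4 enzymes act on H3K9 and on lysine 36. Kdm4a, the most abundant, ranged from 28.1 to 39.4 FPKM in controls and overlapped the knockouts at 29.9 and 30.3 FPKM. Kdm4b stood at 10.5, 10.8 and 8.74 FPKM and at 7.12 and 6.90 FPKM, below every control (log2 change -0.46, limma adjusted p = 0.0708); it is singled out after its values were seen. Kdm4c stood at 8.72, 8.87 and 8.63 FPKM and at 7.08 and 8.25 FPKM (adjusted p = 0.287). The 2 genes of the lysine 36 demethylases were not called. Kdm2b, which brings a non-canonical PRC1 to CG-rich DNA through its own CXXC domain, stood at 18.8, 19.6 and 20.9 FPKM and at 21.04 and 21.02 FPKM in the knockouts (log2 change 0.086, 95% interval -0.12 to 0.29). Kdm2a ranged from 17.5 to 19.9 FPKM over the 5 libraries and overlapped.

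The H3K27 demethylase genes, which oppose PRC2, were not called. Kdm6a (UTX), a subunit of the MLL3 and MLL4 complexes, stood at 16.0, 14.3 and 15.6 FPKM in controls, against 15.2 and 15.0 FPKM after knockout. Its log2 change was -0.016 with a 95% interval of -0.23 to 0.19, and after median-ratio scaling it was 0.012. Kdm6b (JMJD3), an inducible enzyme of inflammatory responses, stood at 15.2, 19.8 and 20.9 FPKM in controls, against 15.2 FPKM in both knockouts (adjusted p = 0.294). Control replicate 1 held nearly the value of the knockouts, and without that library the log2 change was -0.40 with an adjusted p of 0.0177.

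**Figure D4:**
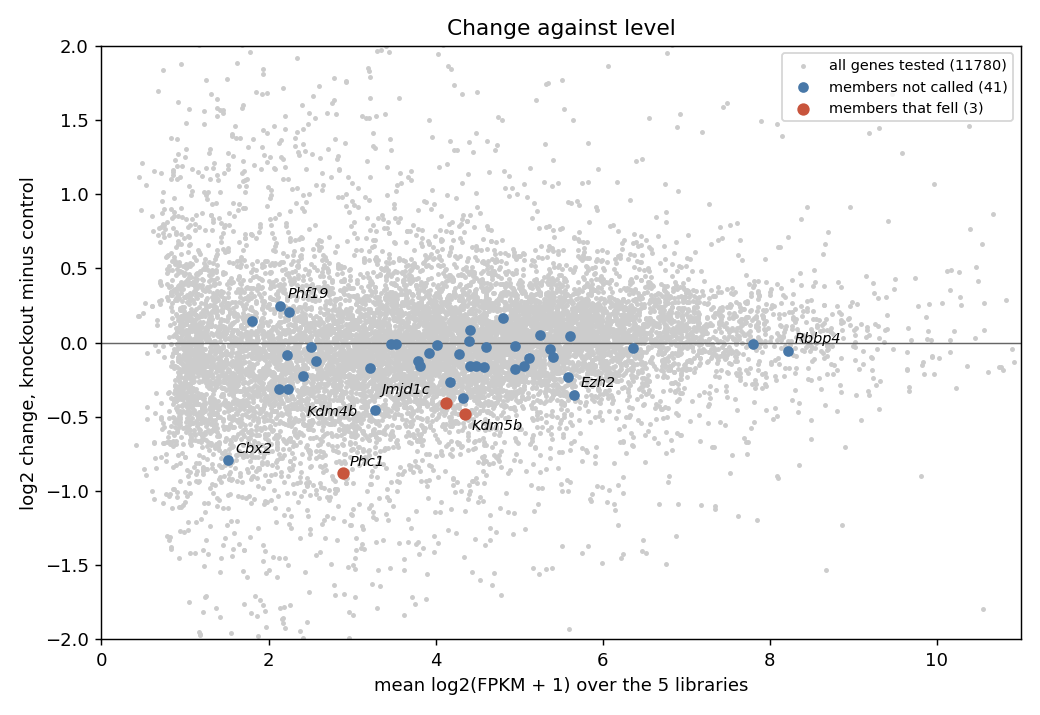
Log2 change, knockout minus control, against the mean log2(FPKM + 1) of the 5 libraries, for all 11780 genes tested (grey) and for the 44 members (blue, not called; red, fell); 173 genes lie outside the axes. Members lie mostly between -0.5 and 0.5, and the 3 red points lie at -0.88, -0.48 and -0.41.

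The calls depended on single libraries. Without control replicate 1, 8 members fell and none rose: Phc1, Kdm5b and Jmjd1c again, with Ezh2, Cbx2, Kdm1a, Kdm3a and Kdm6b. They make 18.2% of the members. Of all genes in that fit, 18.0% fell, 11.9% rose and 29.8% were called in either direction. Without control replicate 2 or 3 limma called 111 and 204 genes in all and no member, with 6 and 9 members at an unadjusted p under 0.05 (13.6% and 20.5%, against 24.7% and 26.3% of all genes). Without a knockout library the other one is assumed to vary like the controls, and limma called 7 genes without knockout replicate 1 and 0 without replicate 2, so these fits say little of single members; 4 members were at an unadjusted p under 0.05 in each (9.09%, against 14.4% and 14.2% of all genes). The loss of calls was thus shared by all genes tested. The 3 changes kept their size: over the 5 fits the log2 change ran from -0.95 to -0.81 for Phc1, from -0.50 to -0.46 for Kdm5b and from -0.43 to -0.38 for Jmjd1c. Without control replicate 2 or 3, the adjusted p in limma was 0.0646 and 0.0613 for Phc1, 0.0772 and 0.0796 for Kdm5b and 0.0966 and 0.0931 for Jmjd1c. In 24 of the 44 members, or 54.5%, control replicate 1 differed from the mean of the other controls by more than the change between groups, against 50.4% of all genes.

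Partner genes of these complexes were taken from 5 further lists written from general knowledge: partners of PRC2, of PRC1, of PR-DUB with other histone H2A deubiquitinases, of LSD1, and other JmjC-domain genes. Of 80 genes found, 72 were tested, and 1 rose and 6 fell, or 9.72% against 9.79% of all genes tested. The median log2 change was 0.011. The partners of PRC1 had 3 of 27 that fell and none that rose, where 5.97% of all genes tested fell and 3.82% rose. The largest was Auts2, which turns a non-canonical PRC1 toward activation, at 12.5, 12.8 and 12.0 FPKM in controls and 2.42 and 2.15 FPKM in knockouts, 5.44-fold lower (log2 change -2.03, limma adjusted p = 0.00362). Sfmbt2, a gene with MBT repeats, fell from 3.02 ± 0.0936 to 1.36 ± 0.0122 FPKM (adjusted p = 0.0222). Usp11, a deubiquitinase gene, fell from 23.3 ± 4.15 to 11.4 ± 0.331 FPKM (adjusted p = 0.0318).

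The partners of LSD1 also had 3 that fell, of 17, and none that rose. Of all genes tested, 5.97% fell and 3.82% rose. Differences between these short lists, or from all genes, were not tested. Phf21a, which reads unmethylated H3K4 in the LSD1 complex, fell from 21.7 ± 0.832 to 12.4 ± 0.335 FPKM (limma adjusted p = 0.0131). Rcor2, a CoREST gene, fell from 28.4 ± 1.88 to 16.2 ± 0.476 FPKM (adjusted p = 0.0153), and Gfi1b, which recruits LSD1 in erythroid and megakaryocytic cells, from 15.5 ± 2.11 to 8.27 ± 1.32 FPKM (adjusted p = 0.038). Gfi1, the related repressor of granulocytes, stood at 25.7, 18.2 and 18.3 FPKM and at 26.9 and 26.4 FPKM (adjusted p = 0.224). None of the 3 PRC2 partners or the 12 PR-DUB partners and deubiquitinase genes tested was called. Of 15 other JmjC genes, the 1 that rose was 2410016O06Rik (Riox1), a ribosomal oxygenase gene, from 15.3 ± 0.55 to 20.8 ± 0.966 FPKM (adjusted p = 0.0397).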

How the data were processed

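Per the labels' protocols, stranded mRNA libraries were sequenced from RNA of cells sorted at day 7. The authors deposited FPKM values, 1 per Ensembl gene and library. The submitters' processing notes list the build mm9 and, without their roles, the tools Cuffdiff, GSNAP, SAMtools and CASAVA 1.8.2. The Cuffdiff version, the annotation, and the use of strand and of multi-mapped reads are unstated. In 16 genes a library held 999999999, treated as a failed estimate, and these genes were left out; none is a member. The files hold no counts, so depth is unknown, no count model was used and no interval covers counting error.

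All genes were fitted with limma 3.58.1 (R 4.3.3), taking log2 of FPKM plus 1 from all 5 libraries, with an intensity trend. The fit was tested on simulated data with known log2 changes of 1 or 2 in size. It recovered 70.35% of the changes of 1 and 93.7% of those of 2, and 4.47% of its calls were false. Every simulated library had the same noise, and no change under 1 was simulated. The recovery of changes as small as those of the members is therefore not known. The members and lists were chosen with earlier results of these data known. The rule for genes named with full values took Mll1, members called, members not overlapping with a log2 change of at least 0.5, and 17 genes chosen for their roles; the other members are described in their role group whatever their call. Current symbols and exon overlaps came from GENCODE M21, in which 17 of the 44 members share exon bases with a gene on the other strand (2 of them above 10%), and promoter sequences from RefSeq.

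Alternatives covered pseudocounts of 0.1 and 5, filters, scaling, the trend, each library left out, a threshold of 0.1 and the replicate number as a block. Same-numbered libraries had correlations of 0.037 and 0.012 between their deviations from group means. The deviations of the knockout libraries mirror each other, so these correlations are not separate checks of pairing.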

Additional observations from a re-analysis of the deposited data

How the results depend on the processing

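Over all genes, 450 rose and 703 fell in limma. With no filter on low values the counts were 238 and 259, and at a threshold of 0.1 they were 1021 and 1414. With each library left out in turn they ran from 0 to 1398 that rose and from 0 to 2118 that fell. Of the members, 3 fell, 7 at a threshold of 0.1 (with Cbx2, Kdm4b, Ezh2 and Kdm1a) and from 0 to 8 with each library left out; none rose in any fit. With the replicate number as a block, 12 genes rose and 43 fell and 0 members were called, at an unadjusted p under 0.05 for 6 of them (13.6%, against 21.5% of all genes); control replicate 3 has no partner and drops out of that fit, and the numbers are not known to pair the libraries. Phc1, Kdm5b and Jmjd1c passed under each of the 7 alternatives of pseudocount, filter, scaling and trend, with the highest adjusted p at 0.0422, 0.0394 and 0.0466. Ezh2 passed after quantile normalization (log2 change -0.38, adjusted p = 0.0314).

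Changes near 0 had no fixed sign. That of Eed was 0.0069 after median-ratio scaling and 0.019 with the replicate block, and -0.12 to 0.032 with each library left out. That of Kdm6a was 0.012 after median-ratio scaling, 0.028 after quantile normalization and -0.061 to 0.014 with each library left out. The same ranges were -0.25 to 0.00078 for Ring1 and -0.025 to 0.10 for Rnf2. The cause was not tested. The Mll1 change ran from -0.51 to -0.29 with each library left out and was -0.38 after median-ratio scaling. Of 243 values for 19 named members under the alternatives, 214 kept their direction and call. Most of these members were not called in the main fit, so for them staying uncalled counted as kept. Phc1, Kdm5b and Jmjd1c lost their call without control replicate 2, without control replicate 3 and with the replicate block. They also lost it in the fits that left out a knockout library, which say little of single members. Unknown read numbers limit Cbx2, Cbx8 and the other members of a few FPKM.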

Other observations

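Of 40 developmental genes that Polycomb complexes commonly silence, 36 were below 1 FPKM in every library and 3 were tested. Cdkn1c, which encodes the cell cycle inhibitor p57, rose from 0.262, 0.337 and 0.330 FPKM in the controls to 1.798 and 1.14 FPKM in the knockouts (limma adjusted p = 0.044); it passed the filter on low values only through the knockouts. Cdkn2a, the locus best known as a target of BMI1, stood at 3.66, 3.10 and 2.43 FPKM and at 4.08 and 4.40 FPKM, above every control and not called (adjusted p = 0.193). Sox1 reached 1.39 FPKM in 1 library only.

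The Y-linked relatives of 2 members were expressed in all libraries. Jarid1d (Kdm5d), the partner of Kdm5c, stood at 8.19, 6.87 and 6.28 FPKM in controls, against 5.14 and 5.19 FPKM after knockout, below every control (limma adjusted p = 0.117). Uty, the partner of Kdm6a, stood at 4.55, 2.78 and 2.82 FPKM and at 4.26 and 3.71 FPKM, with overlap (adjusted p = 0.552).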
